A study of Mus musculus with 24 samples.

Results

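The hypoxia response genes described here are 10 genes of the oxygen-sensing pathway, followed through mouse heart development and through the differentiation of embryonic stem (ES) cells toward heart muscle. They were chosen by name on the annotation of the microarray: Hif1a, Epas1, Hif3a, Egln1, Egln3, Bnip3, Adm, Ca9 (listed as Car9 on the array), Vegfa and Ankrd37. All 10 were measured, as 11 of the 35556 transcript clusters on the array (a transcript cluster is the set of probes for one gene locus) and as 10 of the 19920 genes tested. No measured value was used to choose them from the array, although results of these data were known when the list was drawn up.

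Messenger RNA was measured on 12 Affymetrix mouse gene arrays, 2 from each of 6 groups. The cultures were undifferentiated ES cells (day 0), embryonic bodies, the aggregates that ES cells form as they differentiate (day 7), and cardiac bodies (day 14), grown under a cardiomyocyte differentiation protocol in a DMEM-based medium with 10% serum. The hearts were whole hearts at stage E17.5 (late gestation), at postnatal day 1 (P1) and from adults, for which the labels state no age in days or weeks. No strain, ES line, transgene or oxygen treatment is stated for any group, and the labels do not say whether the paired arrays came from separate cultures or animals, so the p-values measure only the spread between these arrays. All values are log2 signals as deposited, on which a difference of 1 is a doubling. A gene was called changed in a comparison when its Benjamini-Hochberg adjusted p from a limma fit over all genes was under 0.05. In whole tissue and mixed cultures, fewer cells of a type and less RNA per cell cannot be told apart.

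Cells sense oxygen through hypoxia-inducible factors (HIFs), transcription factors built from an oxygen-labile alpha subunit and a stable partner, Arnt. When oxygen is present, prolyl hydroxylases of the Egln family mark the alpha subunit for destruction by the von Hippel-Lindau ubiquitin ligase. When oxygen falls, the alpha subunit accumulates and the dimer activates genes of glycolysis, blood vessel growth and mitochondrial turnover. The control acts largely on the protein, so the messenger RNA of an alpha subunit does not report its activity. The heart forms in the low oxygen of the uterus and meets higher oxygen at birth.

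HIF dimers bind a short core, ACGTG or GCGTG, in the control regions of their targets. The RefSeq promoter windows (GRCm38.p6, 250 bases before to 50 bases after each gene's start) held 9 of the 10 members and 10 promoters, since Vegfa has a pair of entries. Of these, 9 promoters held at least 1 core on either strand, the exception being one Vegfa entry. Among all 32851 promoters of that length 43.8% held one. The windows of 4 members are shown, read 5′ to 3′ on the gene's strand with every core in capitals (CACGT and CACGC are the cores read on the other strand), because these genes span the range of responses described below: Egln3 and Bnip3 varied widely, Car9 and Ankrd37 little.
Egln3, chr12:54203825-54204124, minus strand: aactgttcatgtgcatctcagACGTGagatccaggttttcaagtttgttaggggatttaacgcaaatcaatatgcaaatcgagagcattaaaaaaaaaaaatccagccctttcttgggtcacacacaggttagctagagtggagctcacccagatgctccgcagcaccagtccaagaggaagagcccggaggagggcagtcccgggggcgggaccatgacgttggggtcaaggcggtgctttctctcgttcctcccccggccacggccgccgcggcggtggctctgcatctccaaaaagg
Bnip3, chr7:138909457-138909756, minus strand: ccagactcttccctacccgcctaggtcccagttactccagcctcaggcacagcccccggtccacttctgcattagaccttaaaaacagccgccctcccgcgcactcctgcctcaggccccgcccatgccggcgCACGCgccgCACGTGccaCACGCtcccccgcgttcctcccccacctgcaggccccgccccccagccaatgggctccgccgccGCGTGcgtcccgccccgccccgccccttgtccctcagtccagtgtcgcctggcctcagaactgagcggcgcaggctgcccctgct
Car9, chr4:43506776-43507075, plus strand: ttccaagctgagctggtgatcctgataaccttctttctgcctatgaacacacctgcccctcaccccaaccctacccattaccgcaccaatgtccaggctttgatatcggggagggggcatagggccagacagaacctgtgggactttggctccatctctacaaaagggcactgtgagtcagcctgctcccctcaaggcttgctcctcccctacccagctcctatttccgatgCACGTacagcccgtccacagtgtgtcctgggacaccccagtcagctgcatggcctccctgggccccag
Ankrd37, chr8:45999801-46000100, minus strand: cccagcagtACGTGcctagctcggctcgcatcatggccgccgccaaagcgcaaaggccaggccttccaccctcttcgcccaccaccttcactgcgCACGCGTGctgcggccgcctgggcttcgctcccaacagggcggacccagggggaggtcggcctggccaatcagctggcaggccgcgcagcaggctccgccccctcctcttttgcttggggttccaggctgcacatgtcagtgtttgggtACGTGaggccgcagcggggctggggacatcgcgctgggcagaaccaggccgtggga
The Egln3 and Car9 windows each held 1 core. The Bnip3 window held 5 matches in 4 separate stretches, since the palindrome CACGTG is read on both strands, and the Ankrd37 window held 4 matches in 3 stretches. Among all promoters 17.3% had 2 or more separate stretches. A match is a run of letters and not a shown binding site, and the number of matches did not order these genes by how much their levels moved: the span of the 6 group means was 4.49 for Egln3, 2.34 for Bnip3 and 0.79 for both Car9 and Ankrd37.

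Averages of pluripotency and cardiomyocyte marker genes went with the labels of ES cells and hearts. The mean log2 level of 10 pluripotency genes was 10.85 and 10.86 in ES cells and 5.18 to 5.44 in hearts. The 12 cardiomyocyte genes averaged 11.13 and 10.57 in cardiac bodies, 11.94 to 12.30 in E17.5 and P1 hearts, 10.68 and 11.04 in adult hearts and 5.51 to 6.13 in ES cells and embryonic bodies. Among them the myosin light chain gene Myl7 set the adult arrays apart. It read 5.42 on adult replicate 1 and 11.27 on adult replicate 2, against 11.88 to 12.28 in E17.5 and P1 hearts. The source of this difference was not tested. The pluripotency genes averaged 7.66 and 7.61 in embryonic bodies and 9.77 and 9.98 in cardiac bodies. Of the 10 genes 9 were called higher in cardiac bodies than in embryonic bodies, where 5.45% of all genes were. Endothelial genes averaged 5.67 and 5.59 in cardiac bodies against 8.42 to 8.88 in hearts, and fibroblast genes 5.31 and 5.39 against 8.52 to 9.73. The correlation between the arrays of a group was lowest for P1 (r = 0.971 over genes) and highest for ES cells (r = 0.993).

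**Figure D1:**
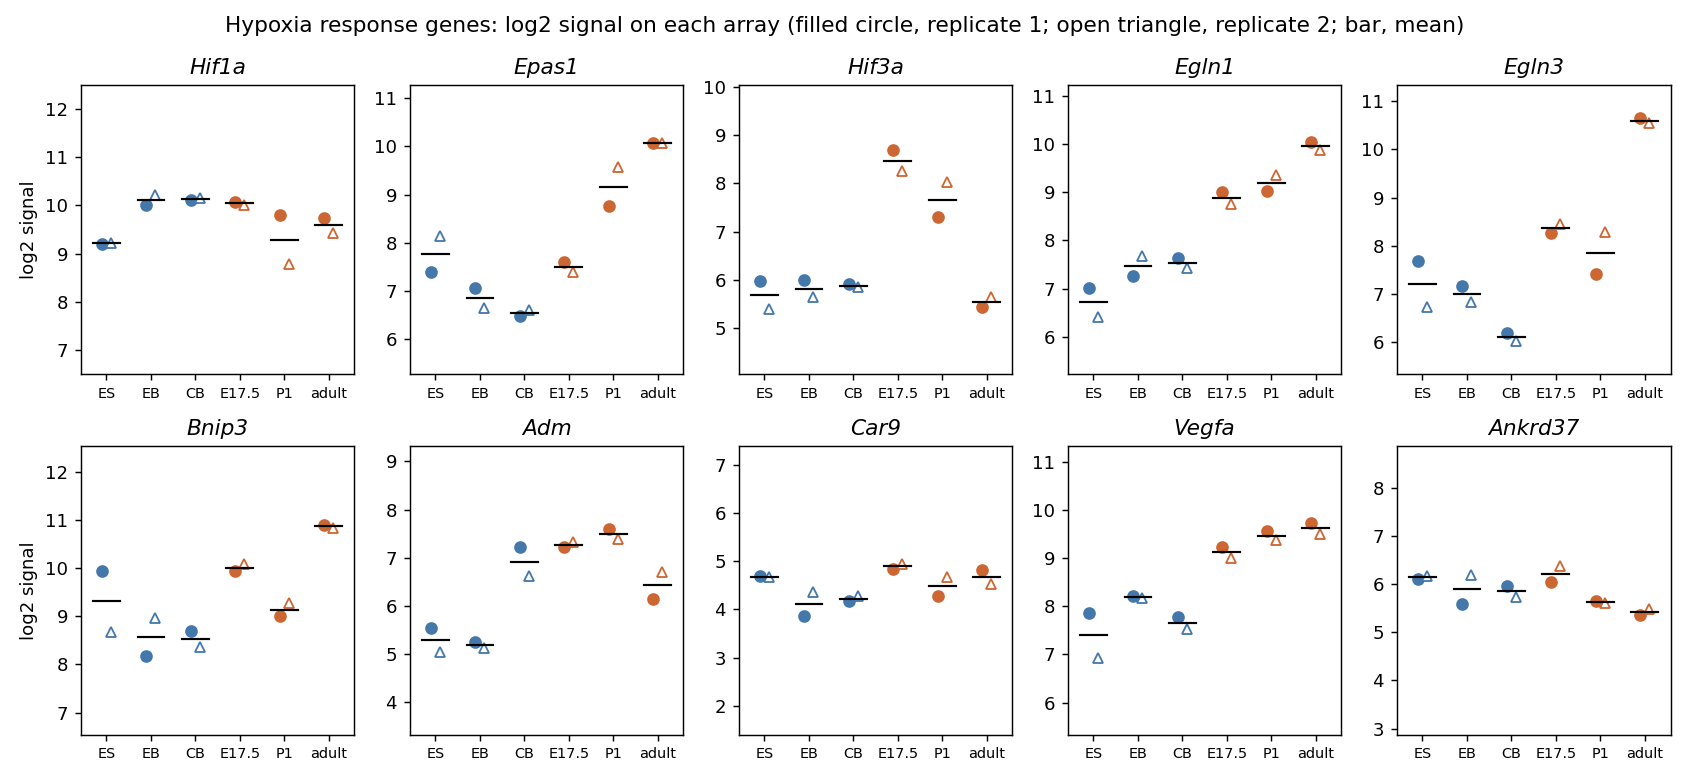
Log2 signal of each of the 10 hypoxia response genes on each of the 12 arrays, by group (EB, embryonic bodies; CB, cardiac bodies); filled circles are replicate 1, open triangles replicate 2 and bars the group mean. Each panel spans the same number of log2 units. Egln3 has its highest levels in adult hearts (10.65 and 10.54), Hif3a in E17.5 hearts (8.68 and 8.25), and Car9 and Ankrd37 stay within a narrow band.

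The alpha subunits had different courses. Hif1a, the widely expressed alpha subunit, read 9.20 and 9.23 in ES cells, 10.02 and 10.22 in embryonic bodies, 10.12 and 10.14 in cardiac bodies, 10.07 and 10.01 at E17.5, 9.79 and 8.77 at P1, and 9.74 and 9.43 in adults. It spanned only 0.92 log2 units between group means, and its P1 arrays differed from each other by 1.02, more than the group means did. Epas1, which encodes HIF-2 alpha and is known for its expression in endothelium, read 7.39 and 8.14 in ES cells, 7.06 and 6.65 in embryonic bodies, 6.48 and 6.61 in cardiac bodies, 7.60 and 7.39 at E17.5, 8.75 and 9.57 at P1, and 10.07 and 10.06 in adults. Within the hearts the Epas1 levels of the 3 ages did not overlap and increased with age. Hif3a, whose products include inhibitory forms of HIF, read 5.97 and 5.40 in ES cells, 5.99 and 5.64 in embryonic bodies, 5.92 and 5.84 in cardiac bodies, 8.68 and 8.25 at E17.5, 7.30 and 8.02 at P1, and 5.44 and 5.63 in adults. Hif3a thus stood high in perinatal hearts and in adult hearts lay within the range of the cultures.

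The hydroxylases Egln1 and Egln3 and also Bnip3 had their highest means in adult hearts, as did Epas1 and Vegfa. Another hydroxylase of the family, Egln2, which is not a member, was lowest there (mean 8.18). It was called as lower than at P1 (-0.58, limma adjusted p = 0.0272). Egln1, the main oxygen-sensing prolyl hydroxylase, read 7.01 and 6.42 in ES cells, 7.26 and 7.69 in embryonic bodies, 7.63 and 7.42 in cardiac bodies, 9.01 and 8.75 at E17.5, 9.02 and 9.37 at P1, and 10.03 and 9.88 in adults. Every heart array was above every culture array. Egln3, a hydroxylase that is itself induced by HIF, read 7.68 and 6.73 in ES cells, 7.16 and 6.83 in embryonic bodies, 6.19 and 6.02 in cardiac bodies, 8.27 and 8.46 at E17.5, 7.41 and 8.29 at P1, and 10.65 and 10.54 in adults. The adult arrays stood more than 2 log2 units above every other array. Bnip3, a mitochondrial outer membrane protein that promotes mitophagy, read 9.94 and 8.67 in ES cells, 8.18 and 8.95 in embryonic bodies, 8.69 and 8.36 in cardiac bodies, 9.94 and 10.08 at E17.5, 9.00 and 9.26 at P1, and 10.90 and 10.83 in adults. Bnip3 is on the array as a pair of transcript clusters with the same symbol, and probes that read a similar copy could divide its signal, so its values are less certain. The values above are from cluster 10414269, used because its mean was higher. The exon-level values named Bnip3 are numbered directly after the second cluster, 10568785. Which cluster reads the Bnip3 gene itself was not tested. The second cluster, which read lower throughout, had the same highest group with 10.27 and 10.15 in adults.

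Of the secreted targets, Vegfa, the main growth factor of blood vessels, read 7.86 and 6.93 in ES cells, 8.22 and 8.16 in embryonic bodies, 7.77 and 7.53 in cardiac bodies, 9.24 and 9.00 at E17.5, 9.56 and 9.37 at P1, and 9.73 and 9.50 in adults. Like Egln1, it was higher on all 6 heart arrays than on any culture array. Adm, the vasodilator peptide adrenomedullin, read 5.54 and 5.05 in ES cells, 5.25 and 5.14 in embryonic bodies, 7.22 and 6.62 in cardiac bodies, 7.23 and 7.33 at E17.5, 7.60 and 7.39 at P1, and 6.15 and 6.71 in adults. Cardiac bodies overlapped neither of the earlier cultures and stood near the hearts. Car9, a membrane carbonic anhydrase that is a widely used hypoxia marker, lay between 3.85 and 4.94 on all 12 arrays, below the array medians of 5.61 to 5.76. Whether Car9 was above background was not tested. Ankrd37, an ankyrin repeat protein induced by HIF, lay between 5.36 and 6.38, with its lowest levels in adult hearts (5.36 and 5.48).

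**Figure D2:**
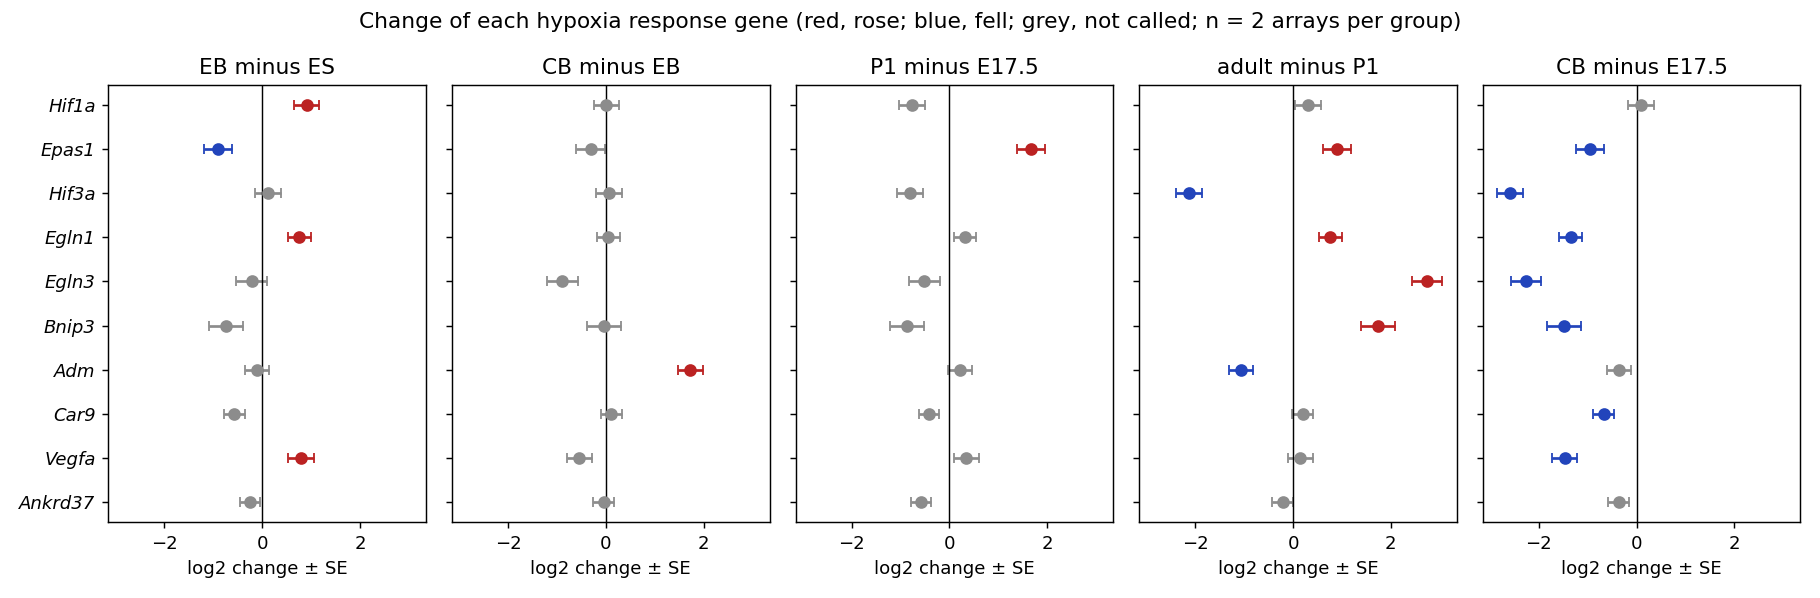
Log2 change of each hypoxia response gene with its standard error in 5 of the 7 comparisons, with called rises in red, called falls in blue and other genes in grey (EB, embryonic bodies; CB, cardiac bodies). In the panel of P1 minus E17.5 Epas1 is the one coloured point, at 1.67, while in the panel of cardiac bodies minus E17.5 hearts the 7 coloured points all lie below 0.

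The step across birth was compared as P1 minus E17.5. Epas1 rose 3.18-fold (log2 change 1.67 ± 0.29 SE, limma adjusted p = 0.00486), from 7.60 and 7.39 to 8.75 and 9.57, and was the one member called. Of all genes 5.13% were called, 2.08% as higher and 3.05% as lower. On the exon-level values all 19 Epas1 probe sets (short groups of probes, most within 1 exon) had a higher mean at P1, by 0.60 to 3.29. For this and the other members the exon-level values come from the same RNA samples, so probe sets are not further replicates. Without E17.5 replicate 2 the Epas1 change was no longer called (adjusted p = 0.0682), and over the arrays left out in turn it ranged from 1.26 to 2.08. Of 12 endothelial marker genes 0 were called by limma at this step (4 at an unadjusted p under 0.05), with a median difference of 0.36, and the list averaged 8.42 and 8.45 at E17.5 and 8.69 and 8.75 at P1. The 7 erythroid genes averaged 6.51 and 7.40 at E17.5 and 5.10 and 5.53 at P1, with 2 called as lower. The part of either list in the Epas1 rise was not tested.

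The other 9 members were not called across birth, but 6 of them had negative differences. Hif3a differed by -0.81 ± 0.27 (adjusted p = 0.112) and its arrays did not overlap. Bnip3 differed by -0.88 ± 0.35 (adjusted p = 0.191), also without overlap, and its second cluster by -0.75 (adjusted p = 0.157). Ankrd37 differed by -0.58 ± 0.21 (adjusted p = 0.149), Car9 by -0.42 ± 0.21 (adjusted p = 0.325) and Egln3 by -0.51 ± 0.31 (adjusted p = 0.453) in the same limma fit. The positive differences were 0.32 for Egln1, 0.34 for Vegfa and 0.22 for Adm, with adjusted p from 0.57 to 0.767. The median difference of the 10 members was -0.46 against 0.01 for all genes, and 9 of 10 members had groups that did not overlap, 4 higher and 5 lower, against 42.7% of all genes.

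Hif1a had the least settled value across birth. Its difference was -0.76 ± 0.27 (limma adjusted p = 0.13), with 9.79 on one P1 array and 8.77 on the other. Without P1 replicate 1 it was -1.27 and called (adjusted p = 0.00128), and without P1 replicate 2 it was -0.25 (adjusted p = 0.731). At the exon level 17 of 18 Hif1a probe sets had a lower mean at P1. Leaving out P1 replicate 2 also brought Hif3a past the threshold, at -1.17 (adjusted p = 0.0465). The P1 arrays disagreed beyond these genes: 4 members were higher by over 0.4 on replicate 2 and 1 on replicate 1, where 17.7% and 14.8% of all genes were. Without P1 replicate 1 the genes called at this step numbered 3056, and without E17.5 replicate 1 they numbered 303, against 1021 with all arrays.

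**Figure D3:**
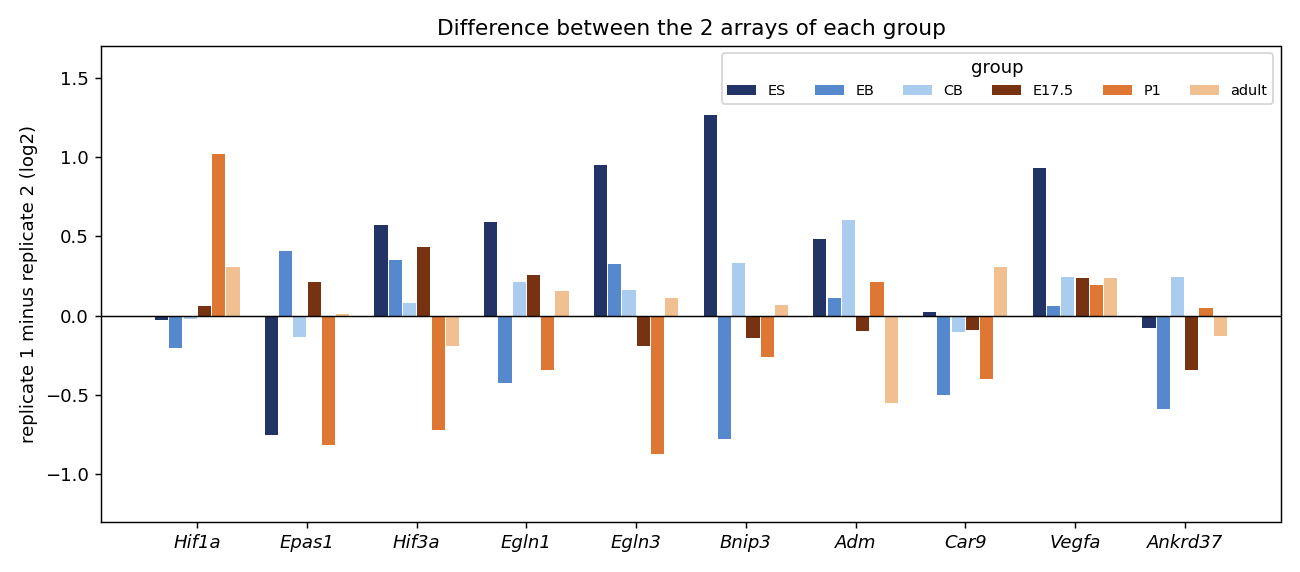
Difference between replicate 1 and replicate 2 (log2) for each hypoxia response gene in each of the 6 groups (EB, embryonic bodies; CB, cardiac bodies). Bnip3 differs most in ES cells (1.27) and Hif1a most at P1 (1.02), while E17.5 and adult hearts have shorter bars for most genes.

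Between P1 and adulthood 6 members changed, 4 up and 2 down, where 30.2% of all genes were called (15.6% higher, 14.7% lower). The labels do not say whether the adult arrays were processed with the others. In every comparison with adults, age and any difference in handling cannot be told apart. Egln3 rose 6.7-fold (2.74 ± 0.31, limma adjusted p = 4.6e-05), the largest change of the 10 genes in any of the 7 comparisons except the fall of Hif3a from E17.5 to adult. Bnip3 rose 3.32-fold (1.73 ± 0.35, adjusted p = 0.0024), and its second cluster by 1.93 ± 0.28 (adjusted p = 0.000241). Epas1 rose 1.87-fold (0.91 ± 0.29, adjusted p = 0.0309) and Egln1 1.7-fold (0.76 ± 0.23, adjusted p = 0.0259). The groups did not overlap for 7 members, 4 higher and 3 lower, against 60.4% of all genes. The Egln3 and Bnip3 rises were called under every alternative run. The Epas1 and Egln1 rises were not called without P1 replicate 1 (adjusted p = 0.231 and 0.129) or without either adult array, and that of Egln1 also not on exon-level medians (adjusted p = 0.312).

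Hif3a fell 4.35-fold from P1 to adult (-2.12 ± 0.27, limma adjusted p = 9.13e-05), with 16 of 17 probe sets lower in adults. Adm fell 2.09-fold (-1.07 ± 0.25, adjusted p = 0.00605), with all 4 of its probe sets lower. The Adm fall was not called without adult replicate 1 (adjusted p = 0.0686) or on exon-level medians (adjusted p = 0.0635). Hif1a differed by 0.31 (adjusted p = 0.429), less than its P1 arrays did from each other, and was called as higher in adults (0.82, adjusted p = 0.00865) only when P1 replicate 1 was left out. Marker lists differed at this step too. Of 10 macrophage genes 8 rose, and the list averaged 6.14 to 6.20 in E17.5 and P1 hearts and 7.58 and 7.94 in adults. Of 12 cardiomyocyte genes 5 fell and 1 rose, with list averages of 12.30 and 12.21 at P1 and 10.68 and 11.04 in adults. Tnni1 read 11.53 and 11.80 at P1 and 5.42 and 5.89 in adults. Myh6, Myh7, Actn2, Myl2, Myl7 and Mybpc3 were also lower on both adult arrays, Myl7 mainly on replicate 1 (5.42). Tnnt2 (13.49 and 13.30, then 13.36 and 13.45), Pln, Ryr2 and Nkx2-5 overlapped. Tnni3 was higher in adults (11.35 and 11.70, then 12.52 and 12.36). Whether adult hearts held less cardiomyocyte RNA was not tested. Of 10 fibroblast genes 4 fell and 3 rose (9.63 and 9.21, then 8.52 and 8.82), and of 7 adipocyte genes 2 rose (5.44 and 5.53, then 5.70 and 6.03). The part of these lists in the member changes was not tested.

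From E17.5 to adult, across both steps together, 6 members changed, where 36.1% of all genes were called (18.1% higher, 18% lower). Epas1 rose 5.95-fold (2.57, limma adjusted p = 2.25e-05), Egln3 4.7-fold (2.23, adjusted p = 0.000133) and Egln1 2.11-fold (1.08, adjusted p = 0.00292). Hif3a fell 7.6-fold (-2.93, adjusted p = 4.74e-06), Adm 1.8-fold (-0.85, adjusted p = 0.0181) and Ankrd37 1.73-fold (-0.79, adjusted p = 0.0108). The groups did not overlap for any of the 10 members, 5 higher and 5 lower, against 68% of all genes. The Ankrd37 fall was not called without E17.5 replicate 2 (adjusted p = 0.101) or adult replicate 1. The Adm fall was not called without either E17.5 array or without adult replicate 1 (adjusted p = 0.165). Egln1 missed the threshold on exon-level medians (adjusted p = 0.118). Bnip3 differed by 0.85 ± 0.35 (adjusted p = 0.075), whereas its second cluster rose by 1.18 ± 0.28 (adjusted p = 0.00506). The exon-level probe sets of Bnip3 are numbered 10568786 to 10568791, directly after the second cluster (10568785). Their medians lay nearer that cluster than the one used in the fit. Neither this nearness nor a call on those medians is a separate check on the second cluster. The median absolute difference over the 12 arrays was 0.187 for the second cluster and 0.915 for the one used. The Bnip3 change was also called after quantile normalization (1.04), on the mean of its clusters (1.02), on exon-level medians (1.54) and without ES replicate 1 (0.85, adjusted p = 0.021) or ES replicate 2. Vegfa was not called with the deposited gene values (adjusted p = 0.162) and was with exon-level medians (adjusted p = 0.0387).

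In culture the first step, embryonic bodies minus ES cells, had 4 members called, where 20.6% of all genes were called (12% higher, 8.61% lower). Hif1a rose 1.87-fold (0.91 ± 0.27, limma adjusted p = 0.0288), Egln1 1.69-fold (0.76 ± 0.23, adjusted p = 0.0355) and Vegfa 1.73-fold (0.79 ± 0.26, adjusted p = 0.0466). Epas1 fell 1.87-fold (-0.91 ± 0.29, adjusted p = 0.0414). The groups did not overlap for 5 members, 3 higher and 2 lower, against 59.8% of all genes. None of these 4 was called on exon-level medians. Hif1a was not called when any one ES or embryonic body array was left out (adjusted p up to 0.135), nor Egln1 without ES replicate 2 (adjusted p = 0.337) or embryonic body replicate 2. Epas1 and Vegfa were called without ES replicate 1 or either P1 array and lost without any other array, with adjusted p = 0.373 and 0.473 without ES replicate 2. Another scaling moved this comparison as a whole: of all genes called 2388 were higher and 1716 lower as deposited, 1948 and 2072 after quantile normalization, and 2006 and 2259 after centring each array on its median, which shifted the median of all genes from -0.03 to -0.14. Egln1 and Vegfa were not called under either scaling.

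Cell type markers differed at this step, and between the embryonic body arrays. All 10 pluripotency genes fell, and 7 of 12 endothelial, 6 of 10 fibroblast, 6 of 10 endoderm and epithelium and 4 of 7 erythroid genes rose. In the endothelial list 1 gene fell. Between embryonic body replicates 1 and 2 the erythroid list averaged 8.90 against 5.37, the fibroblast list 7.19 against 5.77 and the endothelial list 6.61 against 7.41. Among the members 4 were higher by over 0.4 on replicate 2 and 1 on replicate 1, where 13.4% and 7.53% of all genes were. The part of these lists in the member changes was not tested.

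The ES arrays differed from each other in the members. Bnip3 was higher on ES replicate 1 by 1.27, Egln3 by 0.95, Vegfa by 0.93, Egln1 by 0.59, Hif3a by 0.57 and Adm by 0.48, so that 6 of 10 members were higher by over 0.4 where 5.84% of all genes were. Epas1 went the other way by 0.76. Bnip3, which was not called in embryonic bodies against ES cells (-0.74, limma adjusted p = 0.174), was called without ES replicate 2 (-1.37, adjusted p = 0.0129) and differed by -0.11 without ES replicate 1 (adjusted p = 0.92). The source of the difference between the ES arrays was not tested, and member changes against ES cells rest on both.

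At the second culture step, cardiac bodies minus embryonic bodies, Adm was the one member called, where 11.9% of all genes were (5.45% higher, 6.43% lower). It rose 3.32-fold (1.73 ± 0.25, limma adjusted p = 0.000611), in all 4 probe sets, and the call was made under every alternative. Marker lists differed at the same step: 11 of 12 cardiomyocyte and 9 of 10 pluripotency genes rose. Of 12 endothelial genes 7 fell and 1 rose, and of 10 endoderm and epithelium genes 5 fell and 2 rose. Falls were also called for 3 of 7 erythroid and 2 of 10 fibroblast genes. The part of these lists in the Adm rise was not tested. Of all genes called 1085 were higher and 1280 lower as deposited, and 1257 and 957 after quantile normalization. The groups did not overlap for 4 members, 1 higher and 3 lower, against 52.3% of all genes. Egln3 differed by -0.89 ± 0.31 (adjusted p = 0.0949), with lower means in all 10 probe sets, and was called when either P1 array was left out of the fit (adjusted p = 0.0381 without replicate 1).

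Over the whole culture, cardiac bodies minus ES cells, 5 members were called, where 9.8% of all genes were (6.19% higher, 3.61% lower). Adm rose 3.09-fold (1.63, limma adjusted p = 0.00111), Hif1a 1.89-fold (0.92, adjusted p = 0.0478) and Egln1 1.75-fold (0.81, adjusted p = 0.0461). Epas1 fell 2.33-fold (-1.22, adjusted p = 0.0168) and Egln3 2.15-fold (-1.10, adjusted p = 0.0438). Of these the Adm call alone was made under every alternative. The groups did not overlap for 7 members, 3 higher and 4 lower, against 54.9% of all genes. The Epas1 fall was lost without ES replicate 2 (adjusted p = 0.201), without either cardiac body array or on exon-level medians. With 1 array left out Hif1a was called only when that was a P1 array (adjusted p up to 0.211 without others), and Egln1 and Egln3 were lost without either cardiac body, E17.5 or adult array, Egln1 also without ES replicate 2 (adjusted p = 0.398) and Egln3 without ES replicate 1 (adjusted p = 0.408).

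Cardiac bodies were set against E17.5 hearts, the youngest hearts measured. Of the 10 members 7 were lower in cardiac bodies and 0 higher, where 23.7% of all genes were called (12.1% higher, 11.6% lower). Hif3a was lower 6-fold (-2.59, limma adjusted p = 2.57e-05), Egln3 4.79-fold (-2.26, adjusted p = 0.000239), Bnip3 2.79-fold (-1.48, adjusted p = 0.0078) and Vegfa 2.78-fold (-1.47, adjusted p = 0.00125). Egln1 was lower 2.55-fold (-1.35, adjusted p = 0.00112), Epas1 1.94-fold (-0.95, adjusted p = 0.0293) and Car9 1.6-fold (-0.68, adjusted p = 0.0328). Car9 lay below the array medians in both groups, and whether it was above background was not tested. Hif1a (0.09, adjusted p = 0.88), Adm (-0.35, adjusted p = 0.378) and Ankrd37 (-0.37, adjusted p = 0.268) were not called. The median difference of the members was -1.15 against -0.02 for all genes, and the groups did not overlap for any of the 10, 1 higher and 9 lower, against 61.3% of all genes.

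The differences of Hif3a, Egln3, Vegfa and Egln1 between cardiac bodies and E17.5 hearts were called under every alternative. Bnip3 was not called without cardiac body replicate 2 (limma adjusted p = 0.0794) or E17.5 replicate 2. Epas1 was not called without any one array of the 2 groups (adjusted p up to 0.165) or on exon-level medians, nor Car9 without any one ES, cardiac body or E17.5 array (adjusted p up to 0.159). Marker genes of several cell types were lower in cardiac bodies as well: all 12 endothelial, 9 of 10 fibroblast, 8 of 10 macrophage and 3 of 7 erythroid genes were called. Of the 12 cardiomyocyte genes 9 were lower and 0 higher. The median difference was -1.06 for cardiomyocyte, -2.48 for endothelial, -4.71 for fibroblast, -1.37 for macrophage and -1.59 for erythroid genes. Of 10 pluripotency genes 9 were higher, and of 10 endoderm and epithelium genes 7 were higher and 1 lower. Their part in the member differences was not tested.

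**Figure D4:**
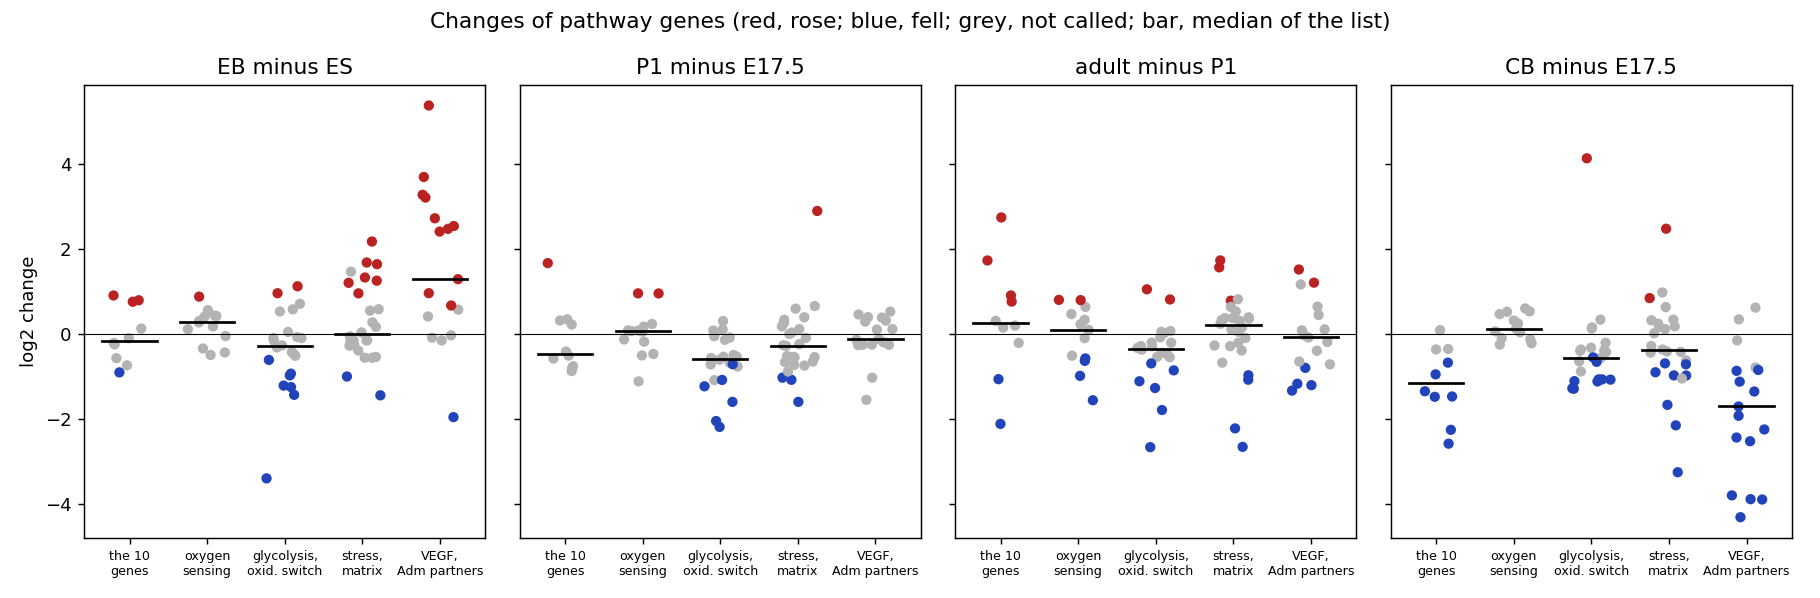
Log2 change of the 10 hypoxia response genes and of the genes of 4 pathway lists in 4 comparisons; each point is 1 gene (red, called rise; blue, called fall; grey, not called), bars are list medians, EB are embryonic bodies and CB cardiac bodies. At P1 minus E17.5 the glycolysis list, of which 6 of 22 fell, has its median bar at -0.59, and the VEGF and adrenomedullin partners lie high in embryonic bodies and low in cardiac bodies against E17.5 hearts.

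The wider pathway was read from 4 lists, whose counts stand against the shares of all genes called: 5.13% across birth, 30.2% from P1 to adult, 36.1% from E17.5 to adult, 20.6% and 11.9% at the culture steps and 23.7% for cardiac bodies against E17.5 hearts. Of the 13 genes of the oxygen-sensing machinery (Arnt, the von Hippel-Lindau ligase and the coactivators of HIF), across birth 2 rose and 0 fell: the coactivators Ep300 (0.96 ± 0.22, limma adjusted p = 0.0257) and Crebbp (0.95 ± 0.21, adjusted p = 0.0202). Neither was called without E17.5 replicate 1, E17.5 replicate 2 or P1 replicate 2, nor on exon-level medians. Between P1 and adult 2 rose and 4 fell, among them Rbx1 of the ligase (-1.56), the asparaginyl hydroxylase Hif1an (-0.99) and Arnt (0.80). Without adult replicate 1 they were 1 and 2. In cardiac bodies against E17.5 hearts limma called 0 of 13 (3 at an unadjusted p under 0.05), and 3 as higher without either P1 array.

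The 22 measured genes of glycolysis and the switch away from oxidative metabolism, textbook HIF targets, had a median difference of -0.59 across birth. Of them 6 fell and 0 rose. Slc16a3, a lactate exporter, fell 4.57-fold (-2.19 ± 0.29, limma adjusted p = 0.000859), Slc2a1, the glucose transporter GLUT1, 4.15-fold (-2.05 ± 0.28, adjusted p = 0.00111) and the glycolytic enzyme Pgam1 3.03-fold (-1.60 ± 0.21, adjusted p = 0.000746). Without either E17.5 array 3 fell. Erythroid marker genes were lower at this step as well: 2 of 7 fell, and the list averaged 6.51 and 7.40 at E17.5 and 5.10 and 5.53 at P1. Their part in the glycolysis falls was not tested. From E17.5 to adult 15 of 22 fell and 1 rose, led by the aldolase Aldoc (-3.44), Slc16a3 (-2.56) and Fam162a (-2.33). Over the same interval 3 members rose (Epas1, Egln1 and Egln3) and 3 fell (Hif3a, Adm and Ankrd37). Between ES cells and embryonic bodies 7 fell and 2 rose, with Pfkp, a phosphofructokinase, lower 10.6-fold (-3.40 ± 0.23, adjusted p = 1.31e-06), Pdk1 lower by 1.44 and Aldoc by 1.25. When ES replicate 1 was left out, 3 fell and 1 rose. In cardiac bodies against E17.5 hearts 9 were lower and 1 higher, the neuronal-type glucose transporter Slc2a3 (4.14, adjusted p = 1.77e-05). The number lower was 3 without cardiac body replicate 2 and 5 without either E17.5 array.

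Of 26 measured targets in stress, mitophagy and matrix assembly, 1 rose and 3 fell across birth. Angptl4, a lipoprotein lipase inhibitor, rose 7.44-fold (2.90 ± 0.21, limma adjusted p = 1.26e-05). The collagen-modifying enzymes P4ha1 (-1.60, adjusted p = 0.000614) and Plod2 (-1.08, adjusted p = 0.0305) fell. Without P1 replicate 1, 2 rose and 7 fell, and without E17.5 replicate 2, 1 rose and 1 fell. Between P1 and adult 3 rose and 4 fell, with Angptl4 (-2.66) and Wsb1 (-2.23) down. Bnip3l, the paralogue of Bnip3 with the same role in mitophagy, rose 3.32-fold (1.73, adjusted p = 2.82e-05). This was the same fold as the Bnip3 cluster used in the fit, while the second Bnip3 cluster rose by 1.93. Across birth Bnip3l was 1 of the 3 called falls (-1.03, limma adjusted p = 0.00635). In embryonic bodies against ES cells 7 rose and 2 fell, led by Ccng2 (2.18), Vldlr (1.68) and Ddit4 (1.64), and 3 rose without ES replicate 2. In cardiac bodies against E17.5 hearts 8 were lower, among them Lox (-3.26), and 2 higher, among them Hmox1 (2.48). Without either array of these groups 4 or 5 were lower and 1 higher.

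The 17 receptors and partners of VEGF and adrenomedullin changed at the same culture steps as the endothelial genes. In embryonic bodies against ES cells 11 rose and 1 fell, with Nrp1 (5.38 ± 0.38, limma adjusted p = 1.55e-06), the VEGF receptor Kdr (3.70) and the ligand Pgf (3.28) leading. In cardiac bodies against embryonic bodies 9 fell and 1 rose, with Ramp2 (-3.18), Kdr (-3.09) and the adrenomedullin receptor Calcrl (-2.76) leading. Of 12 endothelial genes 7 rose and 1 fell at the first of these steps, and 7 fell and 1 rose at the second. So at the step where the ligand Adm rose 3.32-fold, its receptor Calcrl and the accessory protein Ramp2 fell. In cardiac bodies against E17.5 hearts 13 of 17 were lower and 0 higher. Across birth 0 of 17 were called by limma (1 at an unadjusted p under 0.05), and 1 fell without P1 replicate 1. Between P1 and adult Calcrl rose (1.52) while Ramp2 (-1.34) and Kdr (-1.21) fell.

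Patterns most like those of the members were ranked by Pearson correlation over the 12 arrays among 9888 genes whose group means spanned at least 1. The arrays share groups and ages, so these values describe likeness only. Egln1 was closest to Stom (r = 0.992), Prkag1 (0.988) and Fn3k (0.985), and Vegfa to Tshz2 (0.981), Rftn1 and S1pr3 (both 0.971). Adm was closest to the muscle phosphoglycerate mutase Pgam2 (0.975), Atp8a2 (0.968) and Adcy5 (0.965), and Hif3a to Neurl1b (0.962), the cell cycle inhibitor Cdkn1c (0.949) and P4ha3 (0.944). Epas1 was closest to Anpep (0.957), Elmod3 and Inpp5k (both 0.954), Egln3 to Medag, Gas7 and Pilra (all 0.964), and Bnip3 to Mrrf and Lekr1 (both 0.932) and Serpinb1a (0.925). Between members the highest values were 0.95 for Egln1 with Vegfa and 0.91 for Egln3 with Bnip3.

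**Figure D5:**
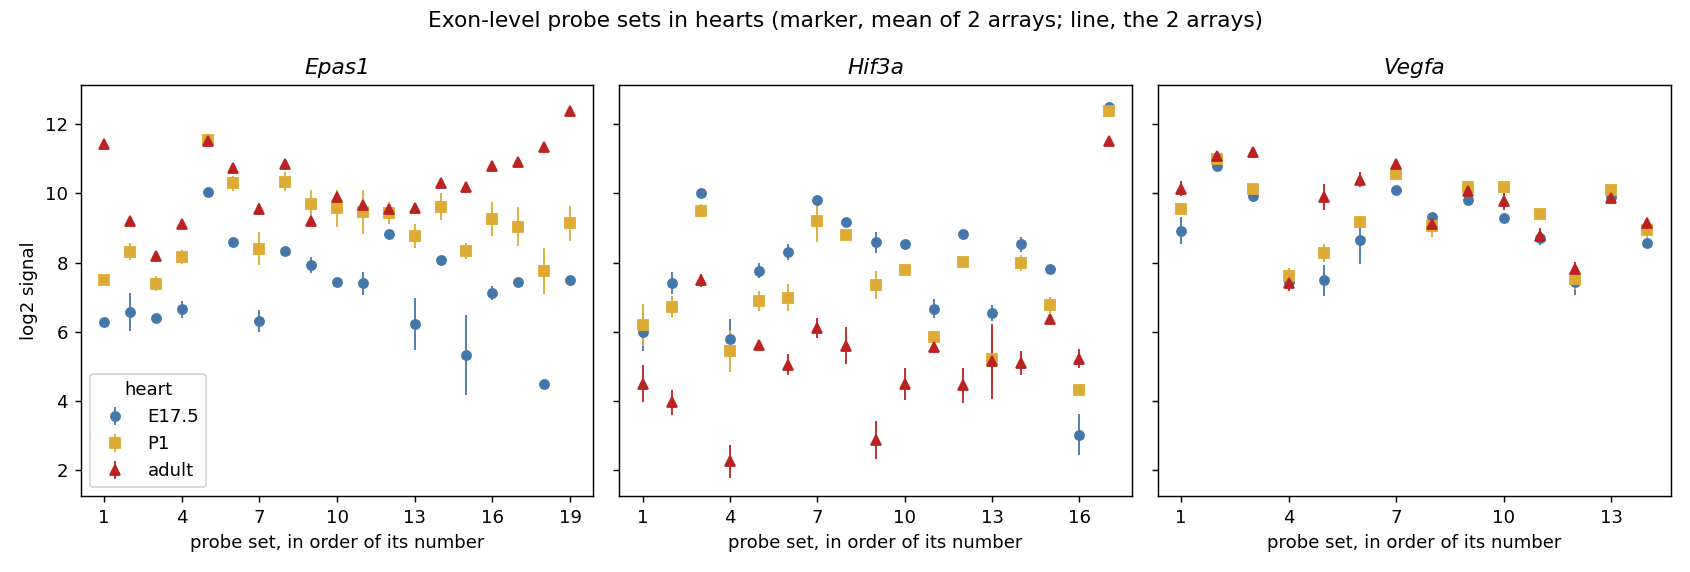
Log2 signal of each exon-level probe set of Epas1, Hif3a and Vegfa in E17.5, P1 and adult hearts, in the order of the probe set numbers; markers are means of 2 arrays and lines join the arrays. All 19 Epas1 probe sets are higher at P1 than at E17.5, and 16 of 17 Hif3a probe sets are lower in adults than at P1.

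The exon-level values allowed the members to be read piece by piece, through a splicing index, which subtracts the gene's log2 signal on an array from the signal of each of its probe sets there. A probe set needed both an adjusted p under 0.05 and an index change of 1 or more to be called. Across birth 0 of 87 member probe sets were called by limma (8 at an unadjusted p under 0.05), and 0% of all probe sets. From P1 to adult 9 of 76 were called, against 15.2% of all probe sets, and from E17.5 to adult 14 of 75, against 18.2%. These shares are near the background and are not a result about the members. Adult age and any difference in how the adult arrays were handled cannot be told apart in them. The called probe sets included 10447318 of Epas1, at 11.42 in adults against 7.50 at P1 (index change 3.02 ± 0.34, limma adjusted p = 0.000984), 10396439 of Hif1a, at 9.14 against 6.58 (2.26 ± 0.43, adjusted p = 0.00778), and 10451203 of Vegfa, at 9.90 against 8.27. In the 3 culture comparisons limma called 0 member probe sets (6 or 7 at an unadjusted p under 0.05), where 0.146%, 0.0399% and 0.219% of all were called in order of the steps, and in cardiac bodies against E17.5 hearts 0 of 67 (18 at an unadjusted p under 0.05), where 0.615% of all were.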

How the data were processed

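The log2 values were deposited by the authors after RMA, a background correction, normalization and probe summary, run with Affymetrix Power Tools per the submitters' processing notes. Tool versions were not given in the sources used here. Each of the 12 RNA samples was deposited as gene-level and as exon-level values. RMA scales arrays to each other, so a shift shared by most genes is lost. Genes were named from the platform annotation. Transcript clusters with 1 symbol (21789) were kept, with the highest-mean cluster for each gene. The model of 6 group means used lmFit and eBayes (limma 3.58.1, R 4.3.3), with 6 residual degrees of freedom, and p-values were adjusted within each of 7 comparisons over 19920 genes. The splicing index was fitted likewise, for genes with at least 4 probe sets and levels at or above the median. The scripts were tested on simulated data. Array precision is limited by 2 arrays a group.

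Named were all 10 members, up to 3 called genes per pathway list and comparison with the largest change and no overlap between groups, the 3 genes most like each member whose group means spanned at least 2, and called probe sets. Egln2 and the Bnip3l fall across birth were named in addition. Members and lists were chosen with earlier results of these data known. Alternatives were a replicate block, a level filter, quantile normalization, median centring, an intensity trend, the mean of a gene's clusters, exon-level medians and each array left out in turn; the second Bnip3 cluster and the pathway lists under all alternatives were added after the data were seen.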

Additional observations from a re-analysis of the deposited data

How the results depend on the processing

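Of the 30 member calls over the 7 comparisons 12 were made under every alternative run, 17 were lost without at least 1 array, and 0 of 1330 recomputed changes reversed a called direction. With each array left out in turn, the members called ranged from 1 to 5 for embryonic bodies minus ES cells, from 1 to 2 for cardiac bodies minus embryonic bodies, from 1 to 5 for cardiac bodies minus ES cells, from 0 to 2 for P1 minus E17.5, from 3 to 6 for adult minus P1, from 4 to 7 for adult minus E17.5 and from 4 to 7 for cardiac bodies minus E17.5. On exon-level medians 0 were called for embryonic bodies minus ES cells and 1 for cardiac bodies minus ES cells; the cause was not tested. Member probe sets called in the splicing index ranged with an array left out from 5 to 10 for adult minus P1, from 10 to 15 for adult minus E17.5 and from 0 to 1 for cardiac bodies minus E17.5. With the median of the other probe sets as the gene level they were 15 for adult minus P1, and for cardiac bodies minus E17.5 they were 1 with that level, with no filter on level and with the replicate block; the cause was not tested. Whether replicate numbers pair some of the arrays was not settled. Over 15 pairs of groups the correlation of same-numbered deviations ran from -0.18 to 0.29, with a median of -0.04 and 2 over 0.1. With the replicate number as a block 3 members were called for cardiac bodies minus ES cells, where Egln1 (adjusted p = 0.0605) and Egln3 (adjusted p = 0.0583) were lost, and 885 genes for P1 minus E17.5. On exon-level medians 581 genes were called for P1 minus E17.5, against 1021. With 2 arrays a group, a p above the threshold does not show that levels were equal. Without an array, its partner is assumed to vary like the other groups.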
